A study of Homo sapiens with 91 samples.

Results

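JUN messenger RNA varied 20.7-fold between the highest and the lowest of 38 single cells of 1 HEK293T clone, and the 12 cells with the most JUN were set against the 12 with the least to see which other genes differed with it. HEK293T is a human embryonic kidney line that carries the SV40 large T antigen. The groups were chosen by their JUN level in CPM, the exonic barcodes of the gene scaled to the library total, so 24 of 38 cells entered the comparison and 14 cells of middle rank were held out. JUN-high cells, JUN-low cells and middle cells were all untreated single cells grown in high-glucose DMEM with fetal bovine serum, and a further 10 libraries of the same clone were averaged aliquots, pooled material split to the input of a single cell. These 48 libraries are those analysed here of 91 samples in the series. They were made by MATQ-seq, a total-RNA method that tags cDNA molecules with random barcodes so that molecules and not amplified copies are counted. No separate culture, day or donor is named for the cells, so every p-value below measures the spread between these cells of a single clone and not between cultures. The selection rests on measured JUN values, so the JUN levels themselves are given as a description with no test.

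JUN is a subunit of AP-1, a pair of basic leucine zipper proteins drawn from the JUN, FOS, ATF and MAF families that binds DNA at the TGANTCA element and at related elements. It is an immediate-early gene with a short-lived transcript that serum, growth factors and stress raise within minutes. JNK, a stress-activated kinase, phosphorylates the JUN protein, and AP-1 in turn acts on the JUN promoter through an element that differs slightly from the consensus. ATF3, a stress-induced member of the same family, has been described to act downstream of JNK. The upstream sequence of JUN is shown because JUN ranked the cells, which fixes its difference between the groups. That of ATF3 is shown because its means differed most among the other AP-1 genes with enough counts. ATF3 was thus picked from these same values, and its difference came from 2 cells, as described below. They are the 250 bases before the RefSeq start on GRCh38.p14, 5′ to 3′ on the gene's strand, chr1:58784048-58784297 (minus strand) for JUN and chr1:212565157-212565406 (plus strand) for the first of 2 listed ATF3 starts. Capitals mark matches to the motifs searched on both strands, TGACATCA, TGACGTCA and TGANTCA.
JUN: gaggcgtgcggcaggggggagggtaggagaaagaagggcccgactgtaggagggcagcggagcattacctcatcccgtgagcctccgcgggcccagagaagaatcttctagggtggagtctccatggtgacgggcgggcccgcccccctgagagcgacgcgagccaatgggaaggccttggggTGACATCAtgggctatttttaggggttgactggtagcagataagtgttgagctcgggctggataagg
ATF3: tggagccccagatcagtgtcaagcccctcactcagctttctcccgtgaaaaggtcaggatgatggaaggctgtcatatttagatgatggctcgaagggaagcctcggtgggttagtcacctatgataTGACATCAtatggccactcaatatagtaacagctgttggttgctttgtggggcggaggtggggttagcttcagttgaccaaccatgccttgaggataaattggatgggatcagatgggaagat
The JUN window held TGACATCA with its first base 67 bases before the start, and the ATF3 window held it 123 bases before the start. The same 8 letters occurred in 834 of 35116 upstream windows of the RefSeq table (2.37%), TGACGTCA in 1.65% and TGANTCA in 6.57%. The second listed ATF3 start, chr1:212614768-212615017 on the plus strand, held none of these letters. A match is a description of the sequence and not of binding in these cells.

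The lowest JUN level among JUN-high cells was 172.4 CPM, the median 369 CPM and the highest 797.3 CPM, against 38.5, 61.3 and 79.6 CPM in JUN-low cells. The means were 404 ± 209 CPM in JUN-high cells and 60.2 ± 12.1 CPM in JUN-low cells (SD, n = 12 each), a ratio of 6.71. JUN-high cells held 68.7% of all JUN barcodes of the 38 cells, and JUN-low cells held 9.31%. The counts behind single levels were 32 to 240 barcodes in JUN-high cells and 8 to 20 barcodes in JUN-low cells. JUN-high cells fell into 2 parts by level. The 6 highest lay between 468.6 and 797.3 CPM and the other 6 between 172.4 and 269.0 CPM, with a 1.74-fold step between the sixth and the seventh cell. At the upper border, the last JUN-high cell had 172.4 CPM with a 95% Poisson interval of 118 to 243 CPM, and the first cell outside had 171.0 CPM with an interval of 116 to 243 CPM. At the lower border, the highest JUN-low cell had 79.6 CPM (45.5 to 129 CPM) and the nearest middle cell 80.9 CPM (43.1 to 138 CPM). Counting error alone therefore leaves the cells at each border without an order, and the intervals cover counting error only. The 10 averaged aliquots lay between 142.0 and 242.6 CPM with a mean of 192 ± 34.8 CPM (SD, n = 10), so 8 JUN-high cells lay above every aliquot, 4 lay within their range and all 12 JUN-low cells lay below. Ranking by JUN reads in place of barcodes kept 9 of the 12 JUN-high cells and 11 of the 12 JUN-low cells.

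**Figure D1:**
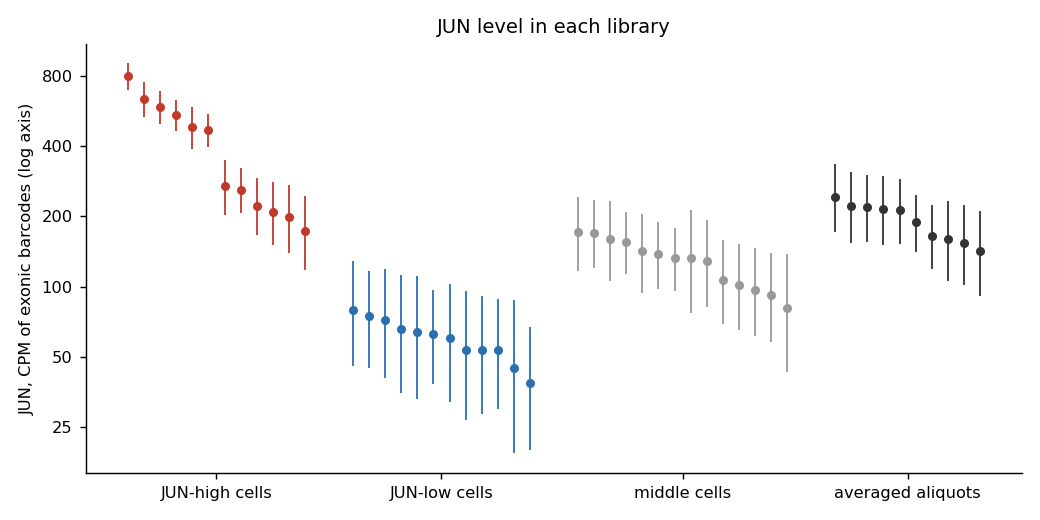
JUN level of each library in CPM of exonic barcodes on a log axis, with bars for the exact 95% Poisson interval of its count, for JUN-high cells, JUN-low cells, middle cells and averaged aliquots. The 6 highest cells stand at 468.6 CPM or more, apart from the other 6 JUN-high cells, which overlap the range of the aliquots.

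Library size and composition differed little between the groups. JUN-high libraries held 243269 ± 54631 exonic barcodes and JUN-low libraries 233783 ± 47987 (SD, n = 12 each), and the number of genes detected averaged 13220 in JUN-high and 12970 in JUN-low cells. The intronic share of barcodes, a measure of unspliced and nuclear RNA, averaged 52.5 ± 8.68% in JUN-high cells and 52.5 ± 9.20% in JUN-low cells. Mitochondrial messenger RNAs made up 1.70 ± 0.433% of exonic barcodes in JUN-high cells and 1.62 ± 0.284% in JUN-low cells. Over 8 such measures the smallest permutation p was 0.511 (100000 resamples, two-sided), with a Benjamini-Hochberg value of 0.987 for each, although the library total enters the JUN level itself. All 12 cells in each group had HEK293T markers, whose summed level over the 4 markers tested ranged from 563 to 1897 CPM in JUN-high cells and from 411 to 1970 CPM in JUN-low cells.

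The comparison of JUN-high with JUN-low cells asked which other RNAs differ with JUN between cells of the same clone. None did beyond the spread between cells after correction. Of 9978 genes whose mean level over the 38 cells reached 10 CPM, 0 were higher (0%) and 0 were lower (0%) in JUN-high cells at an adjusted p under 0.05, by edgeR's quasi-likelihood test with Benjamini-Hochberg adjustment over all genes tested. At an unadjusted p under 0.05, 245 genes were higher (2.46% of genes tested) and 199 were lower (1.99%), 4.45% in all. DESeq2 also called 0 genes, with 269 higher and 201 lower at an unadjusted p under 0.05, and limma called 0, with 273 and 224. The smallest adjusted p was 0.364, for CA8, a carbonic anhydrase-related protein named here after its values were seen. The median log2 fold change, JUN-high over JUN-low, was 0.00. Its median standard error was 0.284 over all genes and 0.214 for the 5159 genes with at least 50 CPM, which gives a median 95% half-width of 0.573 and 0.431. In no gene did the 12 JUN-high cells all lie above or all lie below the 12 JUN-low cells. This outcome depended on the filter on level. With 28842 genes and no filter, 24 genes were called higher and 2 lower, and the share of genes at an unadjusted p under 0.05 was 8.75%. Of these 26 calls, 24 were genes that the filtered test held too, at adjusted p of 0.364 to 0.999, so the calls were mostly not on genes that the filter removed. At least 9 of the 26 were replication-dependent histone genes matched by name, and a further 7 identifiers had no symbol here. Without the filter the edgeR adjusted p was 6.22e-08 for TENM1, 2.66e-06 for HMOX1, 0.000938 for HIST1H1C, 0.0137 for HSPA1B and 0.0278 for BTG2, genes described below with their filtered values. The 14 middle cells, which played no part in the comparison, gave a separate look at the same genes through the slope of each gene on log2 JUN CPM. Of the 444 genes with an unadjusted p under 0.05, 230 (51.8%) had a slope of the same sign there, against 50.3% of all genes tested, and 0 slopes passed adjustment. JUN spanned only 2.11-fold over these cells on 13 to 44 barcodes a cell, and the Poisson intervals of all 14 overlapped, so the cells are poorly ordered by JUN and slopes from them are given as values only.

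**Figure D2:**
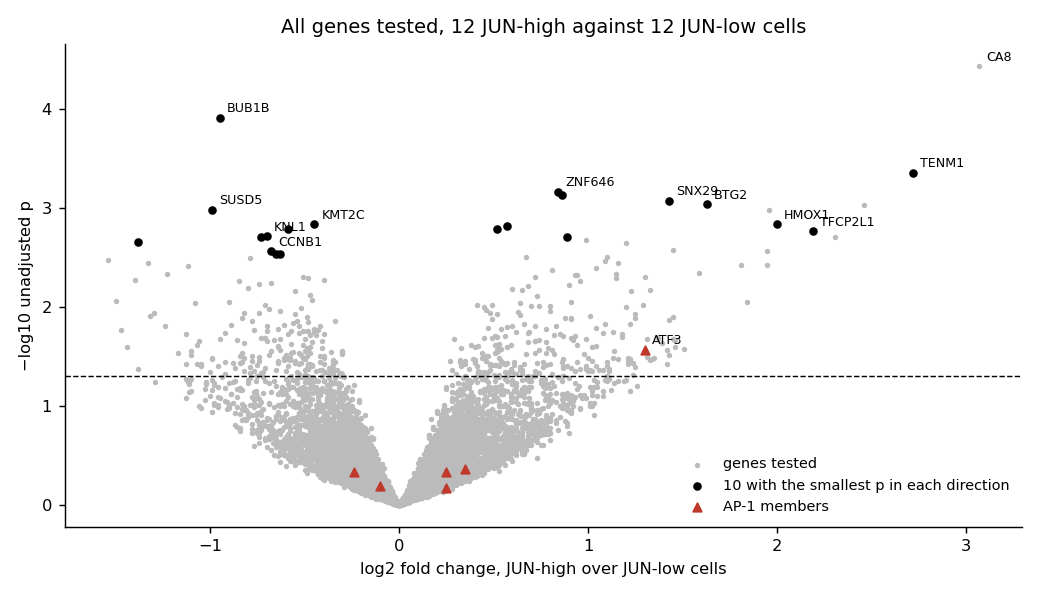
Log2 fold change of JUN-high over JUN-low cells against −log10 of the unadjusted p for the 9978 genes tested, with the 10 named genes of smallest p in each direction among those reaching 20 CPM in either group (black) and the 6 tested AP-1 members (triangles). The dashed line is an unadjusted p of 0.05, and no gene above it reached an adjusted p under 0.05 (smallest 0.364).

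Among the partners of JUN, ATF3 had the largest difference in means, and it came from 2 cells. Of 18 other AP-1 genes, 6 passed the filter on level, with a median log2 fold change of 0.25 beside 0.00 over all genes tested. At an unadjusted p under 0.05, 1 was higher and 0 were lower in JUN-high cells, beside 2.46% and 1.99% of all genes tested. ATF3, a stress-induced transcription factor, had a lowest level of 3.13, a median of 8.96 and a highest of 212 CPM in JUN-high cells, against 0, 10.9 and 48.1 CPM in JUN-low cells. The medians thus ran the other way from the means, which were 38.1 ± 70.0 CPM in JUN-high and 15.7 ± 13.9 CPM in JUN-low cells (SD, n = 12 each). Cells 11 and 21, both among the 6 highest for JUN, had 212 and 159 CPM of ATF3, and the next JUN-high cell had 18.4 CPM. The log2 fold change was 1.30 ± 0.57 (SE; edgeR unadjusted p = 0.027, adjusted p = 0.999), and it was 0.55 without cell 11 (unadjusted p = 0.332) and 0.84 without cell 21 (unadjusted p = 0.152). Introns of ATF3 averaged 39.3 CPM of intronic barcodes in JUN-high and 13.97 CPM in JUN-low cells, in the same libraries. In the middle cells, which are poorly ordered by JUN, the ATF3 slope was −1.34 ± 1.26 (SE) per log2 unit of JUN CPM, with an edgeR unadjusted p of 0.294. Over all 38 cells, which include both groups, the ATF3 slope was 0.60 ± 0.17 (SE).

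The other 5 tested members showed differences within their errors. ATF7, which pairs with JUN at cAMP-response-like elements, had a median of 35.2 CPM in JUN-high and 26.1 CPM in JUN-low cells, with a log2 fold change of 0.25 ± 0.34 (SE). ATF2, another JUN partner and JNK substrate, had medians of 80.3 CPM in JUN-high and 74.8 CPM in JUN-low cells, with a log2 fold change of −0.10 ± 0.22 (SE). MAF, FOSL2 and the small MAF protein MAFG had log2 fold changes of 0.35, 0.25 and −0.24 with unadjusted p of 0.438, 0.672 and 0.464. The remaining 12 members, among them FOS, FOSB, JUNB and JUND, were below the filter with means of 0 to 8.83 CPM over the 38 cells, where 1 barcode is worth 3.06 to 7.79 CPM. FOS, the best known partner of JUN, had 2 barcodes summed over JUN-high cells and 3 over JUN-low cells. JUND, another gene of the JUN family, had 43 barcodes over JUN-high cells and 15 over JUN-low cells, with medians of 15.1 CPM in JUN-high and 4.93 CPM in JUN-low cells. FOSL1 had 11 barcodes over JUN-high cells and 1 over JUN-low cells. These 3 were looked at after their values were seen, and none had an adjusted p under 0.05 in the edgeR test without a filter (JUND 0.521, FOSL1 0.489 and FOS 0.914).

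Immediate-early genes, which serum and stress induce alongside JUN, did not move as a block. Of 44 listed, 22 were tested, and at an unadjusted p under 0.05, 3 were higher and 1 was lower in JUN-high cells, beside 2.46% higher and 1.99% lower over all genes tested, with 13 positive and 9 negative log2 fold changes and a median of 0.12. BTG2, an antiproliferative gene also induced by p53, had a lowest level of 5.39, a median of 22.7 and a highest of 244 CPM in JUN-high cells, against 4.62, 12.1 and 41.2 CPM in JUN-low cells. In 11 of 12 JUN-high cells BTG2 lay above the JUN-low median, and cell 37 alone held 55.7% of its JUN-high barcodes. Its log2 fold change was 1.63 ± 0.46 (SE; edgeR unadjusted p = 0.000911, adjusted p = 0.971), and 0.79 with an unadjusted p of 0.0655 without cell 37. CSRNP1, a nuclear protein induced by AXIN1, had 0, 23.99 and 48.9 CPM as lowest, median and highest in JUN-high cells, against 0, 2.66 and 39.0 CPM in JUN-low cells. The 8 JUN-high cells with the most CSRNP1 had 19.1 to 48.9 CPM of it, and a single JUN-low cell, cell 17 with 39.0 CPM, lay in that range. The log2 fold change was 1.81 ± 0.59 (SE; edgeR unadjusted p = 0.00375, adjusted p = 0.999). In the middle cells BTG2 and CSRNP1 had slopes of −0.13 ± 0.95 and −0.19 ± 1.52 (SE) per log2 unit of JUN CPM, with edgeR unadjusted p of 0.893 and 0.902. Over all 38 cells, which include both groups, their slopes were 0.44 ± 0.18 and 0.59 ± 0.20 (SE). EGR1, the zinc-finger factor that the ERK pathway induces, had 0, 6.70 and 48.5 CPM in JUN-high cells, against 0, 13.1 and 284 CPM in JUN-low cells. The 284 CPM belonged to cell 17, and the log2 fold change of −1.38 ± 0.66 (SE; edgeR unadjusted p = 0.0422, adjusted p = 0.999) was 0.02 without that cell. PPP1R15A, which restarts translation after stress, had medians of 15.9 CPM in JUN-high and 19.6 CPM in JUN-low cells, with a highest JUN-high value of 159 CPM in cell 21.

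**Figure D3:**
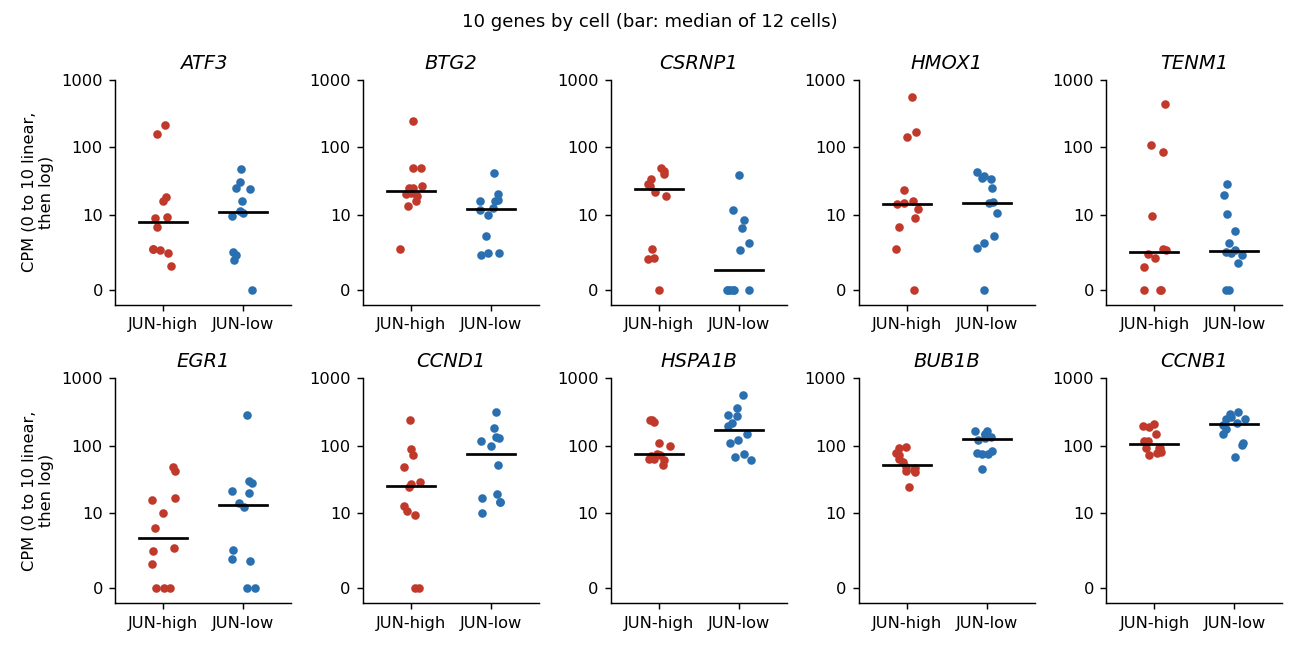
Levels of 10 genes in each of 12 JUN-high and 12 JUN-low cells in CPM, on an axis that is linear to 10 and logarithmic above, with a bar at the median. ATF3, HMOX1 and TENM1 have 2 or 3 JUN-high cells far above the rest, whereas BUB1B and CCNB1 are shifted over most cells.

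Lists of genes upstream and downstream of JUN held few members at an unadjusted p under 0.05. At that threshold 2.46% of all genes tested were higher and 1.99% lower in JUN-high cells. Of 27 tested genes of the JNK pathway, 0 were higher and 0 lower, with a median log2 fold change of −0.06. The extremes of that list by p were TNIK, a kinase upstream of JNK, with medians of 103 CPM in JUN-high and 173 CPM in JUN-low cells, and MAPK9, which encodes JNK2, with 90.4 CPM in JUN-high and 72.5 CPM in JUN-low cells. Of 7 tested genes of the ERK feedback list, 0 were higher and 1 (EGR1) was lower. Of 10 tested AP-1 targets, 0 were higher and 1 was lower, with a median of 0.03. Counts of 0 or 1 in lists this short cannot be told apart from the shares over all genes tested. The lower target was CCND1, the G1 cyclin that AP-1 is known to induce. It had 0, 25.5 and 235 CPM as lowest, median and highest in JUN-high cells, against 9.95, 74.9 and 317 CPM in JUN-low cells, and a log2 fold change of −1.0 ± 0.49 (SE; edgeR unadjusted p = 0.0454, adjusted p = 0.999). Without the JUN-high cell 28, which held the 235 CPM, it was −1.65, and without the JUN-low cell 7 it was −0.63 with an unadjusted p of 0.203. VEGFA, the angiogenic growth factor, had medians of 62.6 CPM in JUN-high and 49.6 CPM in JUN-low cells and a log2 fold change of 0.39 ± 0.31 (SE). In the middle cells, which are poorly ordered by JUN, the CCND1 slope was 2.13 ± 1.06 (SE) per log2 unit of JUN CPM, of the other sign. Over all 38 cells, which include both groups, the CCND1 slope was −0.33 ± 0.20 (SE).

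Of the stress lists, those of p53 and NRF2 targets had mixed signs. Most tested genes of the heat-shock list and of the ATF4 and endoplasmic reticulum stress list had negative log2 fold changes. Of 15 tested p53 targets, 2 were higher and 0 lower at an unadjusted p under 0.05 (2.46% and 1.99% over all genes tested). They were BTG2 and CDKN1A, which encodes the cell-cycle inhibitor p21. CDKN1A had medians of 30.9 CPM in JUN-high and 9.79 CPM in JUN-low cells and a log2 fold change of 0.99 ± 0.47 (SE; edgeR unadjusted p = 0.0394, adjusted p = 0.999). It was 0.71 without the JUN-high cell 25 (unadjusted p = 0.142) and 1.90 without the JUN-low cell 35 (unadjusted p = 0.000127). HEK293T carries large T antigen, which is known to bind p53. Of 15 tested heat-shock genes, 0 were higher (2.46% of all genes) and 3 lower (1.99% of all genes), with 12 negative log2 fold changes and a median of −0.10. HSPA1B, an inducible HSP70, had 52.3, 74.2 and 239 CPM as lowest, median and highest in JUN-high cells, against 60.5, 171 and 563 CPM in JUN-low cells, and a log2 fold change of −0.85 ± 0.29 (SE; edgeR unadjusted p = 0.00546, adjusted p = 0.999). Counts of HSPA1B are uncertain because HSPA1A is a near-identical copy. Of 16 tested NRF2 targets, 1 was higher and 1 lower. The higher gene was HMOX1, the haem-degrading enzyme, with 0, 14.6 and 558 CPM in JUN-high cells, against 0, 15.03 and 43.1 CPM in JUN-low cells. Cells 16, 21 and 37 had 558, 169 and 141 CPM, the other 9 JUN-high cells had at most 23.2 CPM, and the 10 aliquots had 53.4 to 131 CPM. The log2 fold change was 2.00 ± 0.59 (SE; edgeR unadjusted p = 0.00145, adjusted p = 0.971), and 0.98 without cell 16. In the middle cells, which are poorly ordered by JUN, HMOX1 had a slope of −2.08 ± 1.00 (SE) per log2 unit of JUN CPM, opposite in sign (edgeR unadjusted p = 0.0451). Over all 38 cells, which include both groups, the HMOX1 slope was 0.53 ± 0.22 (SE). Of 23 tested genes of the ATF4 and endoplasmic reticulum stress list, 16 had a negative log2 fold change, with a median of −0.07. At an unadjusted p under 0.05, 0 of them were higher and 1 lower (HSPA5, the chaperone BiP, with a log2 fold change of −0.33 ± 0.16, SE). Of 15 YAP targets 0 were higher and 0 lower.

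The cell cycle was where gene lists leaned furthest. Replication-dependent histone mRNAs, made in S phase, had higher means in JUN-high cells, and transcripts of mitosis had lower ones, although no single gene passed adjustment. All 23 tested histone genes had a positive log2 fold change, with a median of 0.65 beside 0.00 over all genes tested, and at an unadjusted p under 0.05, 12 were higher and 0 lower, beside 2.46% and 1.99% of all genes tested. HIST1H1C, linker histone H1.2, had 55.1, 215 and 596 CPM as lowest, median and highest in JUN-high cells, against 40.7, 111 and 298 CPM in JUN-low cells, and a log2 fold change of 0.94 ± 0.32 (SE; edgeR unadjusted p = 0.00473, adjusted p = 0.999). HIST4H4, a histone H4 gene, had 20.99, 53.5 and 178 CPM in JUN-high cells, against 12.5, 32.5 and 78.1 CPM in JUN-low cells. Summed over the tested histone genes, the level ranged from 2074 to 15130 CPM with a median of 7840 CPM in JUN-high cells, against 1913 to 13110 CPM with a median of 4359 CPM in JUN-low cells. The 10 aliquots had 7583 to 11620 CPM. The groups overlapped over nearly the whole range, and of the 6 cells highest in JUN, 3 had 2074 to 4571 CPM of histone mRNA and 3 had 9913 to 15130 CPM. The histone genes share S-phase timing and near-identical copies, so they do not count as separate observations, and only 27 of 61 listed histone genes could be matched by name. In the middle cells, which were not part of the groups, all 23 had a positive slope on log2 JUN CPM, with a median of 0.94. Of the 23, 7 had an unadjusted p under 0.05. Over all genes tested there, the median slope was −0.01 and 3.25% had an unadjusted p under 0.05.

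Of 61 tested G2/M genes, 54 had a negative log2 fold change, with a median of −0.27, and at an unadjusted p under 0.05, 0 were higher and 14 lower in JUN-high cells, beside 2.46% and 1.99% of all genes tested. BUB1B, the spindle-checkpoint kinase BubR1, had 24.5, 52.3 and 96.5 CPM as lowest, median and highest in JUN-high cells, against 44.6, 125 and 164 CPM in JUN-low cells. No JUN-high cell reached the JUN-low median, and the log2 fold change was −0.95 ± 0.23 (SE; edgeR unadjusted p = 0.000121, adjusted p = 0.606). CCNB1, the mitotic cyclin, had 72.9, 104 and 208 CPM in JUN-high cells, against 68.4, 207 and 310 CPM in JUN-low cells, with a log2 fold change of −0.68 ± 0.21 (SE; edgeR adjusted p = 0.999). KIF14, a kinesin of cytokinesis, had a log2 fold change of −0.73 ± 0.22 (SE). The G2/M score, the mean z-score of the list, was above 0 in 3 of 12 JUN-high cells and in 10 of 12 JUN-low cells, with medians of −0.21 in JUN-high and 0.30 in JUN-low cells. Among the middle cells 20 of the 61 slopes were positive, with a median of −0.20 beside −0.01 over all genes tested. Of the 61, 2 had an unadjusted p under 0.05, near the 3.25% of all genes tested there. Of 47 tested G1/S genes, 37 had a positive log2 fold change, with a median of 0.14, and 6 were higher and 0 lower at an unadjusted p under 0.05, beside the same 2.46% and 1.99%. CDC45, part of the replicative helicase, and DTL, a ubiquitin ligase adaptor of S phase, had log2 fold changes of 0.64 ± 0.24 and 0.63 ± 0.24 (SE). With the G1/S and G2/M scores as covariates the median of the G2/M list was −0.06, that of the G1/S list −0.01 and that of the histone genes 0.61, with 6 histone genes higher at an unadjusted p under 0.05 in place of 12. The scores are built from the first 2 of these lists.

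**Figure D4:**
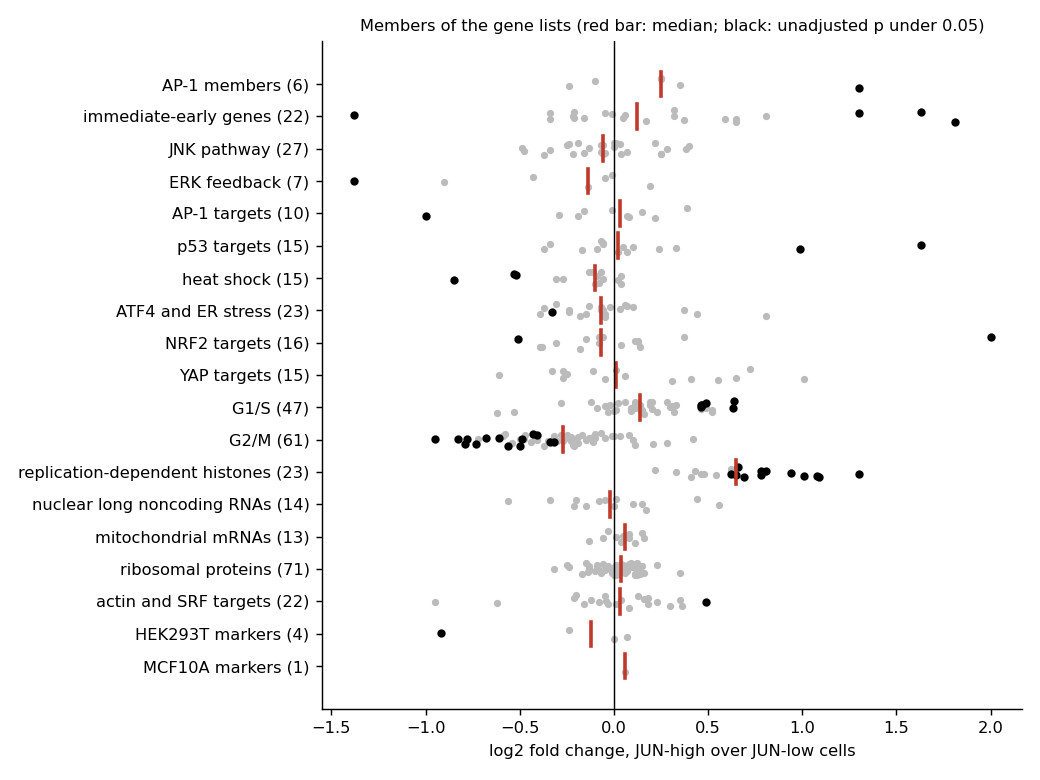
Log2 fold change of JUN-high over JUN-low cells for the tested members of each gene list, with the number tested in parentheses, black points for an unadjusted p under 0.05 and a red bar at the median. The histone genes lie wholly to the right of 0 (median 0.65) and the G2/M genes mostly to the left (median −0.27), and the other lists with more than 10 members have medians between −0.10 and 0.14.

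**Figure D5:**
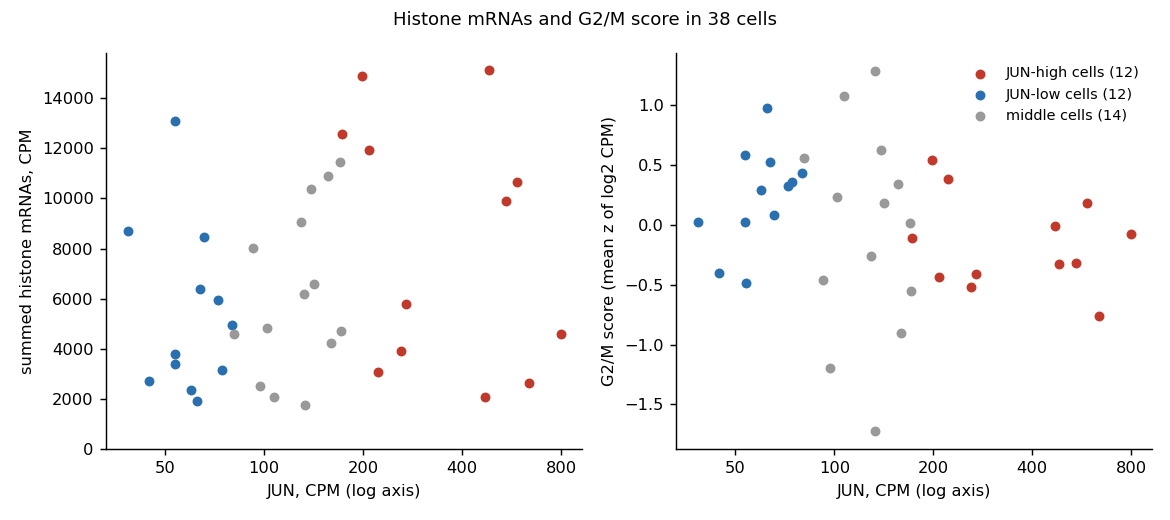
Summed histone mRNA level in CPM (left) and G2/M score (right) against JUN CPM on a log axis for 12 JUN-high, 12 JUN-low and 14 middle cells. Histone levels of JUN-high and JUN-low cells overlap from 2074 to 13110 CPM, and 10 of 12 JUN-low cells have a G2/M score above 0, against 3 of 12 JUN-high cells.

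The genes with the smallest unadjusted p outside these lists were of mixed function. TENM1, a teneurin of the cell surface, had 0, 5.00 and 441 CPM as lowest, median and highest in JUN-high cells, against 0, 5.15 and 28.8 CPM in JUN-low cells. Cell 11 held 70.4% of its JUN-high barcodes, and the log2 fold change of 2.72 ± 0.72 (SE; edgeR unadjusted p = 0.000437, adjusted p = 0.971) was 1.27 without it. CA8 had 0, 11.2 and 92.2 CPM in JUN-high cells, against 0, 0 and 5.32 CPM in JUN-low cells. CA8 had no barcode in 1 JUN-high cell and in 7 JUN-low cells, and its log2 fold change was 3.07 ± 0.67 (SE; edgeR unadjusted p = 3.64e-05, adjusted p = 0.364). SNX29, a sorting nexin, had 4.89, 38.7 and 62.8 CPM in JUN-high cells, against 3.57, 10.4 and 28.8 CPM in JUN-low cells, and 7 JUN-high cells lay above every JUN-low cell. Its introns averaged 278 CPM of intronic barcodes in JUN-high and 266 CPM in JUN-low cells. PRR14, which tethers heterochromatin to the nuclear lamina, had medians of 93.1 CPM in JUN-high and 49.6 CPM in JUN-low cells, with 8 JUN-high cells above every JUN-low cell and a log2 fold change of 0.86 ± 0.24 (SE). The zinc-finger genes ZNF646 and ZNF142 had log2 fold changes of 0.84 ± 0.23 and 0.57 ± 0.17 (SE), RALGAPB, a subunit of a Ral GTPase activator, 0.52 ± 0.16, and PLPPR2 0.89 ± 0.27. TFCP2L1, a transcription factor, had medians of 14.8 CPM in JUN-high and 2.41 CPM in JUN-low cells.

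In the other direction SUSD5 had 0, 28.4 and 58.2 CPM as lowest, median and highest in JUN-high cells, against 26.6, 68.5 and 106 CPM in JUN-low cells, and 9 JUN-low cells lay above every JUN-high cell. KMT2C, a histone H3 lysine 4 methyltransferase, had medians of 356 CPM in JUN-high and 515 CPM in JUN-low cells, with a log2 fold change of −0.45 ± 0.13 (SE). KNL1, a kinetochore scaffold, had medians of 83.2 CPM in JUN-high and 145 CPM in JUN-low cells, with a log2 fold change of −0.70 ± 0.21 (SE). LAPTM4A, a lysosomal membrane protein, had medians of 96.5 CPM in JUN-high and 142 CPM in JUN-low cells, with a log2 fold change of −0.59 ± 0.17 (SE). ZNF566, SLC37A3 and NSDHL, an enzyme of cholesterol synthesis, had log2 fold changes of −1.38 ± 0.43, −0.63 ± 0.20 and −0.65 ± 0.21 (SE). Each of these 3 had an adjusted p of at least 0.971 in edgeR's test. Of the 20 genes named by smallest p over both directions, 12 had a slope of the same sign in the middle cells. TENM1, ZNF142 and CCND1 overlap STAG2, BCS1L and LTO1 on the opposite strand in GENCODE. With no stated use of strand, reads from the shared stretch cannot be told apart from those of the overlapping gene. The share of barcodes from that stretch was not measured.

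Housekeeping and nuclear RNAs showed small differences. At an unadjusted p under 0.05, 2.46% of all genes tested were higher and 1.99% lower in JUN-high cells. Of 71 ribosomal protein genes, 0 were higher and 0 lower at that threshold, with a median log2 fold change of 0.04. Of 13 mitochondrial messenger RNAs 0 were higher and 0 lower, with a median of 0.06. Of 14 nuclear long noncoding RNAs, 0 were higher and 0 lower. NEAT1, the scaffold of paraspeckles, had 534, 1310 and 4352 CPM as lowest, median and highest in JUN-high cells, against 346, 869 and 3819 CPM in JUN-low cells, and a log2 fold change of 0.44 ± 0.31 (SE). Of 22 actin and SRF targets, 1 was higher, TAGLN2, with medians of 183 CPM in JUN-high and 136 CPM in JUN-low cells (edgeR adjusted p = 0.999). A count of 1 in a list this short cannot be told apart from the share over all genes tested. Of 4 tested HEK293T markers, 1 was lower, the neurofilament gene NEFM, with medians of 33.97 CPM in JUN-high and 29.8 CPM in JUN-low cells and a highest JUN-low value of 182 CPM. Its log2 fold change of −0.92 ± 0.43 (SE) was −0.61 without the JUN-low cell 7 (unadjusted p = 0.162). Of 12 markers of MCF10A, the mammary line of the same series, LAMA3 alone passed the filter, with a log2 fold change of 0.06 ± 0.32 (SE). The summed level of all 12 ranged from 19.1 to 183 CPM in JUN-high cells and from 12.5 to 154 CPM in JUN-low cells.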

How the data were processed

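Counts were deposited per cell as whole numbers for 57820 Ensembl identifiers: reads and random barcodes over exons, and the same over introns (4 columns). Reads had been aligned and counted by the authors with TopHat and HTSeq on hg19, per the submitters' processing notes; versions and the use of strand were not given in the sources used here. Symbols came from GENCODE (52338 identifiers matched; the others held 1.59% of exonic barcodes). The members, gene lists and tests were chosen with earlier results of these data known.

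Cells were ranked by JUN exonic barcodes over the library total. Genes other than JUN whose mean over 38 cells reached 10 CPM were fitted with edgeR 4.0.16 (TMM, quasi-likelihood) in R 4.3.3 and adjusted over all 9978. SE is the log2 fold change over the root of F. DESeq2 1.42.0 and limma 3.58.1 were alternatives. The 14 middle cells were fitted on log2 JUN CPM. Library measures used permutation tests (scipy 1.17.1). No 2 cells were duplicates (chi-square per degree of freedom at least 2.14). Depth was 128322 to 326476 exonic barcodes a cell. The named genes were all tested AP-1 members, 10 genes of smallest p in each direction reaching 20 CPM in either group (since under 10 passed adjustment), and 2 genes of smallest p per list, 56 in all; pseudogenes, unnamed identifiers and multi-copy small RNAs were left out.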

Additional observations from a re-analysis of the deposited data

Results flagged for a closer look

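Among the 10 averaged aliquots, 65 measures were looked at and 9 had a single aliquot far from the other 9. The nominal rate of the rule used is about 1 in 20 groups, which levels resting on few barcodes need not follow. Single aliquots stood high for MAFG (39.4 CPM, aliquot 1), ATF7 (81.4 CPM, aliquot 7), TFCP2L1 (34.9 CPM, aliquot 7), CSRNP1 (32.7 CPM, aliquot 9), PPP1R15A (73.1 CPM, aliquot 1), AMOTL2 (27.6 CPM, aliquot 3) and FHL2 (39.3 CPM, aliquot 9). Aliquot 4 stood low for SLC37A3 (26.2 CPM), and aliquot 2 stood low for the mitochondrial mRNA share (1.01% of exonic barcodes). No aliquot entered the comparison of JUN-high with JUN-low cells.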

How the results depend on the processing

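All settings other than one gave 0 genes higher and 0 lower at an adjusted p under 0.05: DESeq2, limma, plain totals, DESeq2 size factors, a minimum of 50 CPM, reads, thinned counts, other rankings and group sizes, JUN as a continuous term, 4 sets of covariates, robust moderation, intronic barcodes, the 6 highest cells, and leaving out each of the 24 cells (0 to 0). Robust moderation, intronic barcodes and the 6 highest cells were added after seeing the data. With no filter on level 24 genes were higher and 2 lower; the cause was not tested. The 2 counts over the 14 middle cells stayed at 0 with limma and with library total as a covariate. No paired analysis was possible because both groups are cells of 1 labelled group and a cell number names a cell only.

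Of 2388 log2 fold changes of the 56 named genes under alternatives, 29 changed sign and 5 (TENM1, HMOX1, HIST1H1C, HSPA1B and BTG2), all with no filter, passed adjustment. Thinning to the smallest library gave 0.054 for ATF2 and −1.077 for FOSL2. Groups of 16 gave 0.054 for ATF2 and −0.312 for FOSL2. Ranking by JUN reads gave −0.045 for MAF, −0.078 for FOSL2, −0.132 for NEAT1 and −0.131 for LAMA3. The 6 highest cells gave −0.298 for MAF, −0.106 for FOSL2, −0.028 for MAPK9, −0.152 for VEGFA and −0.108 for LAMA3. JUN over 38 cells gave −0.024 for FOSL2, −0.023 for VEGFA and −0.051 for LAMA3. Groups of 8 gave −0.263 for VEGFA and −0.276 for LAMA3. The cell-cycle scores gave −0.012 for MAF, the intronic share −0.014 for LAMA3 and DESeq2 0.104 for EGR1. Leaving out single cells moved ATF2 between −0.158 and 0.035, EGR1 between −1.753 and 0.024 and LAMA3 between −0.099 and 0.225.

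The difference in intronic share, in percentage points of JUN-high minus JUN-low, was −4.66 with groups of 8, −0.124 with groups of 16, −1.18 when ranked by reads and −1.53 to 1.87 without single cells. In groups of 8 the long noncoding share differed by −0.00727 points and the small noncoding share by −0.0900 points. Without single cells the small noncoding share differed by −0.0330 to 0.0693 points and the ribosomal protein share by −0.0887 to 0.160 points. No library measure passed adjustment in any setting run.

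A cell's depth of 128322 to 326476 barcodes makes 1 barcode worth 3.06 to 7.79 CPM. Levels near 10 CPM thus rest on a few barcodes. The median 95% half-width of 0.573 on the log2 scale holds for a typical gene before adjustment. Passing adjustment over all genes tested takes a larger difference, whose size was not worked out. BUB1B, with a log2 fold change of −0.95 ± 0.23 (SE), had an edgeR adjusted p of 0.606. The absence of calls therefore does not exclude differences above 0.573.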
